A study of Mus musculus with 18 samples.

Results

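The genes described here are 10 receptors for lipid mediators, histamine, formyl peptides and complement fragments, namely Hrh4, Ptgdr2, Cysltr1, Cysltr2, Ltb4r1, Fpr1, Fpr2, C3ar1, C5ar1 and Ptafr. They were chosen by gene symbol from the 22708 genes of the deposited table, and each of the 10 is in it. Small-intestinal eosinophils of mice were isolated by sorting CD11b+ MHC-II- SiglecF+ SSChi cells, and bulk RNA sequencing was done on them. The 3 groups are wild type (WT), Ahr-/- and a group labelled Ahrr-/-, each with 6 samples, 3 from females (F1 to F3) and 3 from males (M1 to M3). The labels give C57/BL6 as the strain, and no age and no treatment. Ahr encodes the aryl hydrocarbon receptor, a transcription factor switched on by its ligands, and Ahrr encodes a repressor of that receptor. The methods state that Ahr-/- and WT mice were neither littermates nor housed together, so litter, housing and genotype cannot be told apart in that comparison.

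Eosinophils are granulocytes that live in the lamina propria of the gut and are drawn into tissue by chemical signals. Many of these signals are read by receptors that span the membrane and act through G proteins: platelet-activating factor, leukotrienes and prostaglandin D2 are lipids made from the membrane, histamine comes from an amino acid, formyl peptides come from bacteria and mitochondria, and C3a and C5a are cut from complement proteins. In eosinophils such receptors are known for guiding migration, priming and the release of granules.

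The values are the authors' variance-stabilized expression on a log2 scale, with its floor at a count of 0. On it, differences of genes with few counts come out below their log2 count ratio. Whole counts were recovered from all values (100% within a tolerance of 0.001). Total counts lay between 3842977 and 8149200 in WT (median 6022410), between 6581818 and 10284124 in Ahr-/- (median 9647590) and between 8788867 and 12046933 in the samples labelled Ahrr-/- (median 10371556). WT samples were thus the shallowest as a group, which makes low counts least precise there. The F3 libraries of WT and Ahr-/- stood apart in the number of genes with at least 1 count: WT F3 had 20244, against 16526 in the next WT library, and Ahr-/- F3 had 19694, against 16704 in the next. Calls of receptors and list genes that change without these libraries are named beside the result.

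The Ahr transcript was not lower in Ahr-/- than in WT. Its lowest, median and highest log2 values were 13.40, 13.76 and 14.40 in WT, 14.15, 14.55 and 14.67 in Ahr-/- and 13.03, 13.51 and 14.42 in the samples labelled Ahrr-/-. The Ahr-/- samples lay high, with 4 of 6 above the highest WT sample, and the difference of 0.61 had an adjusted p of 0.0557 (limma, Benjamini-Hochberg). It passed the threshold in 8 of 27 alternatives, with an adjusted p down to 0.0145. Against Ahr-/-, Ahr was lower in the samples labelled Ahrr-/- (difference -0.82, adjusted p = 0.0296 from limma, below the Ahr-/- median in 6 of 6 samples). That call was lost on omitting any 1 of 7 samples out of 12, namely Ahr-/- F1, F2, M1, M2 or M3 or Ahrr-/- F3 or M3, with an adjusted p between 0.0562 and 0.0739, and also with no minimum mean (0.0672) or no sex covariate (0.051).

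Ahrr, a well-known target of the receptor, had lowest, median and highest log2 values of 9.79, 10.12 and 10.39 in WT and a median of 5.25 and a highest value of 5.79 in Ahr-/-, where 2 libraries had a count of 0 and its counts summed to 14 over the 6 libraries. In the samples labelled Ahrr-/- the values were 9.95, 10.37 and 10.93. Ahrr was therefore at or near the floor in each Ahr-/- sample, without overlap with WT (difference -4.83, adjusted p = 4.95e-12 from limma, lower in 6 of 6 samples), while the samples labelled Ahrr-/- lay in and above the WT range (difference 0.28, adjusted p = 0.683 from limma, above the WT median in 3 of 6 samples). A count over a whole gene cannot check a deletion whose extent is not in the labels, so both knockouts are used as labelled.

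The sorted cells carried eosinophil transcripts. Of the 6 eosinophil markers (Siglecf, Ccr3, Il5ra, Epx, Prg2 and Itgam) all 6 were in the table and none was at 0 in any library, although Epx, a granule peroxidase made mainly by precursors in the marrow, had only 178 counts summed over the 18 libraries. Their summed normalized count had a lowest, median and highest value of 25532, 35457 and 39985 in WT, 33191, 36165 and 44490 in Ahr-/- and 15583, 31484 and 39748 in the samples labelled Ahrr-/-, and Itgam was the most abundant. Ahr-/- samples thus lay within or above the WT range for these markers, and some samples labelled Ahrr-/- lay below it. Prg2, a granule protein, rose by 2.30 in Ahr-/- (adjusted p = 3.47e-07 from limma).

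Markers of other cells were present too, and several lists were higher in the samples labelled Ahrr-/-. The 10 epithelial markers, with Lyz1 the most abundant over the 18 libraries, summed to a median of 9928 in WT (6970 to 19497), 8442 in Ahr-/- (7091 to 10942) and 28194 in the samples labelled Ahrr-/- (9125 to 52806). For the 12 markers of macrophages, monocytes and dendritic cells, with Cd74 the most abundant, the medians were 2172 (1488 to 3088), 1911 (1298 to 4683) and 3470 (1315 to 6512). The 9 neutrophil markers, with Cxcr2 the most abundant over the 18 libraries, had medians of 826 (711 to 1099), 1168 (751 to 3093) and 2202 (1735 to 4481). Each of these lists had its highest median in the samples labelled Ahrr-/-, and for the neutrophil list these samples lay above the whole WT range. Within the neutrophil list, S100a8 and S100a9 rose against WT by 2.06 (adjusted p = 0.000667) and 2.10 (adjusted p = 0.00022 from limma), while Mmp8, at a difference of 0.66 from WT (0.429), was not called. In Ahr-/- against WT, Cxcr2 was higher by 0.65 (0.0198) and Mmp8 lower (difference -0.92, 0.00677), and from Ahr-/- to the samples labelled Ahrr-/- Mmp8 rose by 1.58 (0.000322, all from limma). In Ahr-/- the mean normalized count of Mmp8 was 8.67, too low to pass the minimum mean. It was tested against Ahr-/- only through the other group, where it is high, so no conclusion is drawn from its calls. Other genes of the list were at 0 in most libraries, namely Elane in 17 of 18, Mpo in 14, Ly6g in 13 and Camp in 13, while Ltf was at 0 in none and Mmp8 in 1.

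The remaining lists were small or mixed. The 8 mast cell markers, with Gata2 the most abundant over the 18 libraries, had medians of 286 in WT (157 to 606), 275 in Ahr-/- (155 to 777) and 324 in the samples labelled Ahrr-/- (257 to 515). Among them Tpsb2 and Fcer1a were each at 0 in 15 of 18 libraries, Ms4a2 in 13, Mcpt2 in 10, Mcpt1 in 9, Cpa3 in 1 and Kit and Gata2 in none. B and plasma cell markers, 5 of 6 in the table with Jchain the most abundant, had medians of 527 (197 to 1764), 264 (67.9 to 726) and 3878 (321 to 6004). T cell and innate lymphocyte markers, 6 of 7 in the table with Rora the most abundant, had medians of 22.0 (3.83 to 171), 8.36 (3.67 to 47.1) and 48.1 (8.78 to 58.1). The medians of both lists were highest in the samples labelled Ahrr-/-, with overlap, and Cd3e, which defines T cells, was at 0 in 4 libraries. The 8 fibroblast and endothelial markers, with Pecam1 the most abundant, had medians of 3369 (2637 to 3841), 2145 (1921 to 2374) and 3248 (2485 to 3928), lower in each Ahr-/- sample than in any WT sample. Pecam1 alone made up most of that sum, with a mean of 3169 in WT. Other genes of the list had their highest mean in the samples labelled Ahrr-/-: the mean of Col3a1 was 33.8 in WT, 22.1 in Ahr-/- and 175 in the samples labelled Ahrr-/-, that of Col1a2 was 17.7, 12.9 and 94.5, and Dcn reached 149 in the latter against 15.4 in Ahr-/-. Against WT, limma called 0 of the 7 tested genes of this list there (4 at an unadjusted p below 0.05). Against Ahr-/-, 2 of 7 were called higher, Col1a2 by 1.09 (adjusted p = 0.0379) and Cdh5 by 0.70 (0.0318, both from limma). These 2 were below the minimum mean between WT and Ahr-/-. They were tested here only through the samples labelled Ahrr-/-, where they are high, so no conclusion is drawn from the 2 calls. Col3a1 and Dcn passed in no comparison. The 6 pancreatic acinar markers, with Cela1 the most abundant over the 18 libraries, had medians of 696 (39.1 to 2047), 33.1 (25 to 215) and 34.0 (29.0 to 1232). The part of these other cells in the receptor values was not tested, and in bulk RNA fewer cells of a type and less RNA per cell cannot be told apart.

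The receptors differed widely in level. On a scale of normalized counts per kilobase of exon, Ptafr stood far above the other 9 at 2846 ± 652 in WT (SD, n = 6), more than 99.7% of the 22233 genes with a known length. It encodes the receptor for platelet-activating factor. Ltb4r1, the high-affinity receptor for leukotriene B4, came next at 140 ± 45.9 (SD, n = 6). A middle group held the C5a receptor C5ar1 at 75.9 ± 30.3, the C3a receptor C3ar1 at 60.9 ± 10.5 and Ptgdr2, the prostaglandin D2 receptor also called CRTH2, at 55.2 ± 16.7 (SD, n = 6 each). These 3 neighbours differed in level by less than the larger of their SDs. Fpr2, a receptor for formyl peptides and other ligands, stood at 11.2 ± 6.71 and the cysteinyl leukotriene receptor Cysltr1 at 8.36 ± 3.93 (SD, n = 6 each), again within their spread. The lowest levels per kilobase were those of Fpr1 (2.71 ± 2.71), Cysltr2 (1.77 ± 1.57) and the histamine receptor Hrh4 (1.27 ± 1.89; SD, n = 6 each), which overlapped one another.

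Levels per kilobase in the other genotypes kept Ptafr first, at 1479 ± 614 in Ahr-/- and 2700 ± 1277 in the samples labelled Ahrr-/- (SD, n = 6 each). Ltb4r1 stood at 126 ± 36.9 and 126 ± 72.0, C5ar1 at 97.6 ± 59.6 and 138 ± 50.0, C3ar1 at 89.9 ± 28.1 and 53.5 ± 8.45 and Ptgdr2 at 86.9 ± 21.4 and 54.6 ± 22.3 (SD, n = 6 each, Ahr-/- first). C5ar1 thus passed Ltb4r1 in the samples labelled Ahrr-/-, within the spread of both. For the low receptors the levels were 17.7 ± 8.04 and 32.8 ± 14.6 for Fpr2, 14.3 ± 2.97 and 10.6 ± 3.80 for Cysltr1, and 5.51 ± 9.56 and 15.2 ± 10.7 for Fpr1 (SD, n = 6 each, Ahr-/- first). Cysltr2 stayed at 1.76 ± 1.46 and 1.86 ± 1.32, while Hrh4 was at 0.558 ± 0.637 in Ahr-/- and at 0 in the samples labelled Ahrr-/- (SD, n = 6 each).

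**Figure D1:**
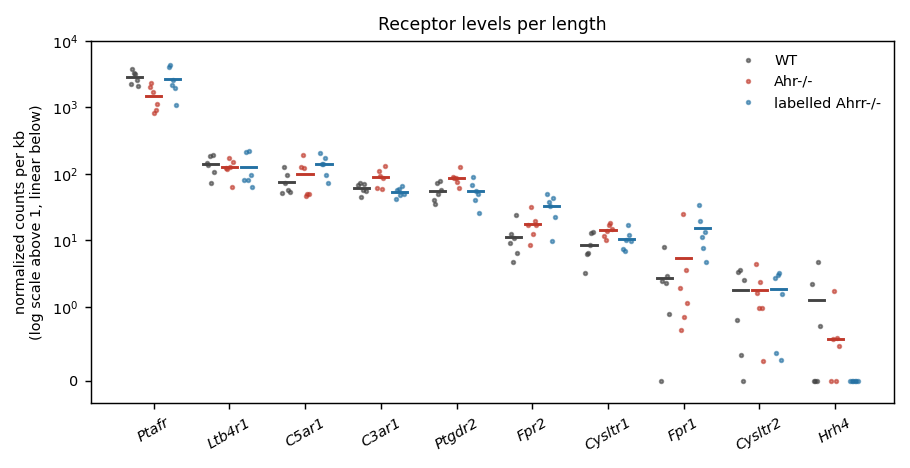
Level of each of the 10 receptors in normalized counts per kilobase of exon (axis logarithmic above 1 and linear below), with 1 point per sample and a line at the mean of the 6 samples of each genotype. Ptafr, with a WT mean of 2846, lies apart from the other receptors, which have WT means from 1.27 to 140.

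Of the 10 receptors, 7 had a mean at least 1 above the floor and were tested, and Hrh4, Cysltr2 and Fpr1 fell below that minimum in each comparison. Hrh4, the histamine receptor known for eosinophil chemotaxis, was close to absent: its counts summed to 16 over the 18 libraries, 10 of them in 3 WT libraries and 6 in 4 Ahr-/- libraries. The 6 libraries labelled Ahrr-/- held 0 Hrh4 counts among 61158451, which allows up to 3 counts in that total (a limit that covers counting error only), and WT held 10 among 35853331. A difference between genotypes in Hrh4 was not tested. Cysltr2, the second cysteinyl leukotriene receptor, had 96 counts in all, 20 in WT, 33 in Ahr-/- and 43 in the samples labelled Ahrr-/-, with 0 to 15 in a library.

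Fpr1, the high-affinity formyl peptide receptor of phagocytes, had 205 counts: 14 in WT (0 to 5 per library), 47 in Ahr-/- (1 to 35) and 144 in the samples labelled Ahrr-/- (10 to 52). On the log2 scale it had a median of 5.47 and a highest value of 5.82 in WT, with 1 library at a count of 0. Its lowest, median and highest values were 5.26, 5.38 and 6.42 in Ahr-/- and 5.65, 6.02 and 6.64 in the samples labelled Ahrr-/-. The group labelled Ahrr-/- lay highest, overlapping the top of WT, and 1 library, Ahr-/- F3, held 35 of the 47 Ahr-/- counts. The summed neutrophil markers were 3093 in Ahr-/- F3, against 1477 in the next Ahr-/- library, and 1735 to 4481 in the samples labelled Ahrr-/-, above all of WT. Their part in the Fpr1 counts was not tested.

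**Figure D2:**
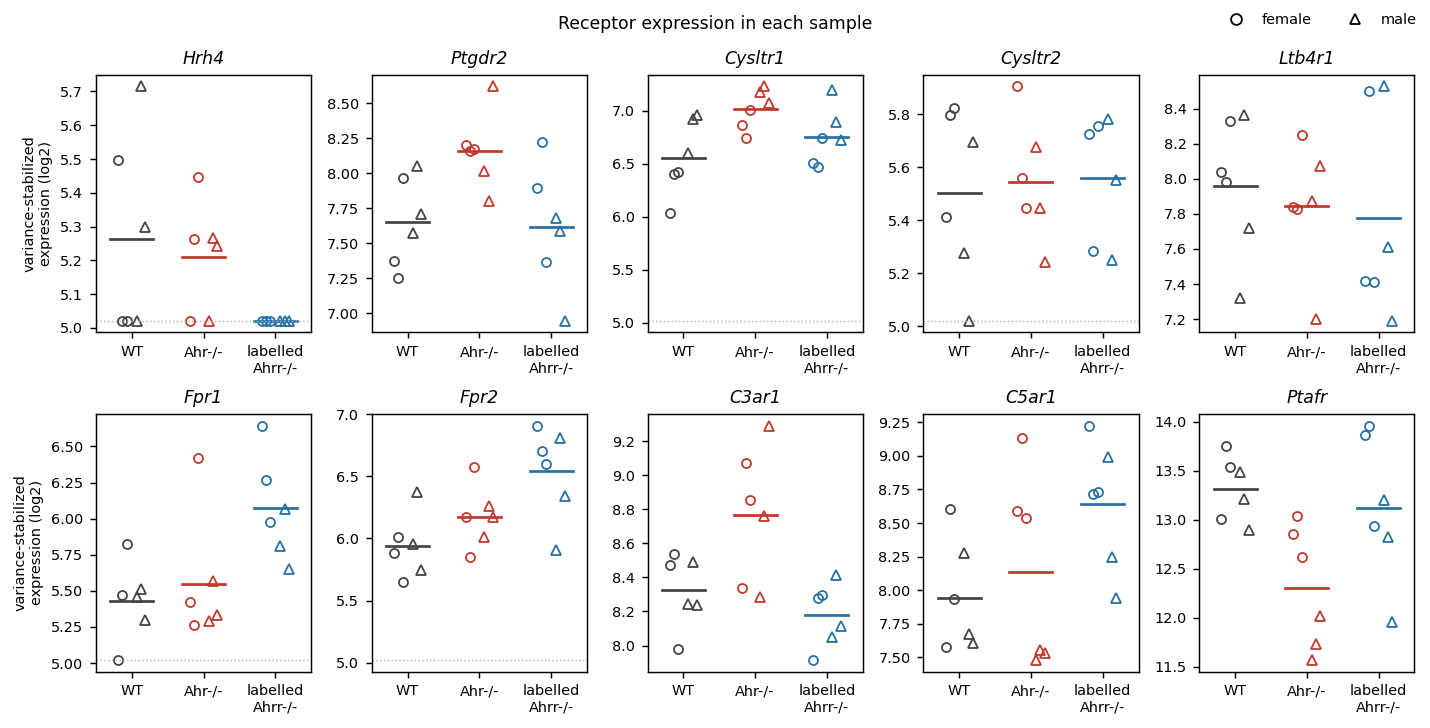
Variance-stabilized expression (log2) of each receptor in each of the 18 samples, with circles for females, triangles for males, a line at the group mean and a dotted line, where in range, at the value of a count of 0. Each panel has its own vertical axis. In the Ptafr panel the 3 Ahr-/- males lie below each of the other samples of WT and Ahr-/-, between 11.57 and 12.02.

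The comparison of Ahr-/- with WT asks what differs in eosinophils that lack the aryl hydrocarbon receptor. Ptafr fell and Cysltr1 rose in Ahr-/-, 2 of the 7 receptors tested, beside 8.84% of all genes tested (1003 of 11346, 585 higher and 418 lower in Ahr-/-). The median difference was 0.24 over the 7 receptors and -0.00 over all genes tested. The share of receptors rests on 7 genes, and nothing particular to them is read from it. Beside the markers named above, Csf1r was higher in Ahr-/- by 0.49 (adjusted p = 0.00693), and Muc2 (difference -1.12, 0.00174), Pecam1 (-0.63, 0.00116), Prss2 (-1.22, 0.0445) and Cela2a (-1.55, 0.0343, all from limma) were lower. Csf1r was the 1 gene called of 8 tested in its list (median difference -0.04), and Muc2 the 1 of 10 (-0.36). Pecam1 was 1 of 3 (-0.22), and Prss2 and Cela2a were 2 of 5 (-1.55). Within the lists of Csf1r and Muc2, other genes went the other way without a call, such as Cd74 (-0.41) and Fabp1 (0.43). Prss2 and Cela2a were below the minimum mean between the mutant groups, so they were tested here only through WT. The part of the cells these markers stand for in the receptor values was not tested.

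Ptafr (Entrez 19204) lies at chr4:132564067-132582683 on the plus strand of GRCm38. On the log2 scale its lowest, median and highest values were 12.89, 13.35 and 13.75 in WT and 11.57, 12.32 and 13.04 in Ahr-/-. All 6 Ahr-/- samples lay below the WT median and 5 lay below the lowest WT sample, so the groups overlapped by a single Ahr-/- female. The difference was -1.01 (standard error 0.18, 95% interval -1.40 to -0.62, adjusted p = 0.00214 from limma), and the ratio of mean normalized counts was 0.520. The call held on omitting each of the 12 samples in turn, with an adjusted p of at most 0.00775.

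Male and female Ahr-/- samples took different positions for Ptafr. The WT females had log2 values of 13.01, 13.75 and 13.54 and the WT males 13.48, 13.21 and 12.89. In Ahr-/- the females had 12.85, 13.04 and 12.62 and the males 11.57, 11.73 and 12.02. The 3 Ahr-/- males were thus the lowest of these 12 samples, while 2 of the Ahr-/- females lay under the WT range and 1, at 13.04, within it. The difference between genotypes was -0.60 in females and -1.42 in males. The test of that contrast between the sexes gave -0.83 (95% interval -1.49 to -0.16, adjusted p = 0.954 from limma), so it was not shown to depend on sex. Among females only, a setting chosen after seeing the data, the fall of Ptafr was not called (adjusted p = 0.213, the highest of a range from 3.31e-05 over the 27 alternatives).

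The sequence before the start of Ptafr is shown because it is the receptor with the lowest adjusted p in this comparison and because AHR binds DNA at a known core, GCGTG. Promoter windows of 250 bases were taken from RefSeq (GRCm38.p6) and searched on both strands for GCGTG. The table held 8 of the 10 receptors and no entry for Hrh4 or Cysltr1. GCGTG occurred in 0 of these 8 windows, against 28.2% of all 32851 windows, and a window without these letters says nothing about binding elsewhere. The Ptafr window, chr4:132563817-132564066 on the plus strand, is given 5′ to 3′ in lower case as it holds no match that capitals would mark.
Ptafr promoter: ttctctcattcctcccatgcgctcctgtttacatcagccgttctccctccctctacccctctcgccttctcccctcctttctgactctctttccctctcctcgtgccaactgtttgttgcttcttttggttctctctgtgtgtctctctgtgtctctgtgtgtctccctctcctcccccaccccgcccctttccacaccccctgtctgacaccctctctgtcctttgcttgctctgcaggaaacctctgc

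Cysltr1 (Entrez 58861), the receptor through which leukotriene D4 acts most strongly, lies at chrX:106574346-106603679 on the minus strand. Its lowest, median and highest log2 values were 6.03, 6.51 and 6.96 in WT and 6.75, 7.04 and 7.23 in Ahr-/-. All 6 Ahr-/- samples lay above the WT median and 4 above the highest WT sample. The difference was 0.46 (standard error 0.12, 95% interval 0.20 to 0.71, adjusted p = 0.0275 from limma), and the ratio of mean normalized counts was 1.71. It rests on few reads, 14 to 57 counts in a WT library and 57 to 102 in an Ahr-/- library. The call ended on omitting any 1 of 6 samples (WT F1 or M1, or Ahr-/- F1, F2, F3 or M2), with an adjusted p between 0.0509 and 0.0702. It also ended with no minimum mean, no sex covariate, the replicate number as a block (0.0507), the F3 libraries of WT and Ahr-/- left out (adjusted p = 0.0792) or within either sex, in a range from 0.0156 to 0.453 over the 26 alternatives. The direction was the same in each of them.

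The other 5 tested receptors were not called. Ptgdr2 (Entrez 14764, chr19:10937160-10942511, plus strand), through which prostaglandin D2 attracts eosinophils, had lowest, median and highest log2 values of 7.25, 7.64 and 8.05 in WT and 7.80, 8.17 and 8.62 in Ahr-/-. All 6 Ahr-/- samples lay above the WT median, 4 of them above the highest WT sample, and the difference was 0.51 (95% interval 0.17 to 0.85, adjusted p = 0.0585 from limma). It passed the threshold when WT F3, WT M2 or Ahr-/- M2 was left out, with an adjusted p down to 0.0299 in a range up to 0.546. Exons of Ptgdr2 overlap those of Ccdc86 on the opposite strand, and whether reads were counted by strand is not given in the sources used here. C3ar1 (Entrez 12267, chr6:122847138-122856161, minus strand) had 7.98, 8.36 and 8.53 in WT and 8.29, 8.81 and 9.29 in Ahr-/-, with 4 of 6 Ahr-/- samples above the highest WT sample and 2 in the WT range. Its difference was 0.44 (95% interval 0.09 to 0.79, adjusted p = 0.119 from limma).

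Fpr2 (Entrez 14289, chr17:17887824-17893952, plus strand) differed by 0.24 (adjusted p = 0.362) and Ltb4r1 (Entrez 16995, chr14:55765962-55768494, plus strand) by -0.11 (adjusted p = 0.744, both from limma). The WT mean of Fpr2, 5.94, was under the minimum mean, so it was tested against WT only through the Ahr-/- samples. Fpr2 shares exons with Fpr3 on the same strand and is close in sequence to Fpr1, so reads of this family may be split with some error. Ltb4r1 had lowest, median and highest log2 values of 7.32, 8.01 and 8.37 in WT and 7.20, 7.86 and 8.25 in Ahr-/-, ranges that nearly coincide. C5ar1 (Entrez 12273, chr7:16246743-16259540, minus strand) had 7.58, 7.80 and 8.60 in WT and 7.48, 8.05 and 9.13 in Ahr-/-, and its difference was 0.19 (adjusted p = 0.626 from limma, above the WT median in 3 of 6 samples).

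Behind that small difference the sexes of the Ahr-/- group lay apart. C5ar1 was 8.59, 9.13 and 8.54 in Ahr-/- females and 7.48, 7.56 and 7.53 in Ahr-/- males, without overlap, whereas WT females had 7.58, 8.60 and 7.93 and WT males 8.28, 7.67 and 7.60. The Ahr-/- females thus lay near the top of the WT range or above it, and the 3 Ahr-/- males lay below the lowest WT sample. Within Ahr-/-, some marker sums parted by sex as well: for the macrophage, monocyte and dendritic cell list 1298 to 1719 in females and 2102 to 4683 in males, for the mast cell list 362 to 777 and 155 to 188, and for the fibroblast and endothelial list 2182 to 2374 and 1921 to 2107. The mast cell sum was mostly Kit and Gata2 (means 185 and 168 in Ahr-/-) and the fibroblast and endothelial sum mostly Pecam1 (2021), so neither sum shows such cells. The eosinophil, neutrophil, epithelial, T cell, B cell and acinar sums overlapped between the sexes. The part of cell composition in the Ptafr and C5ar1 values was not tested. The difference between genotypes was 0.71 in females and -0.33 in males, and the contrast between the sexes was -1.04 (95% interval -1.79 to -0.29, adjusted p = 0.954 from limma). Over all genes tested, limma called an interaction of sex with genotype for 0 of 11346 genes in this comparison (0%), with 533 at an unadjusted p below 0.05 in limma, and for 0 of the 7 receptors, where C5ar1 and Ptafr were at an unadjusted p below 0.05. For the comparisons of WT with the samples labelled Ahrr-/- and of the 2 mutant groups it was called for 0 of 11546 and 0 of 11474 genes (0% each), with 544 and 375 at an unadjusted p below 0.05 in limma.

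**Figure D3:**
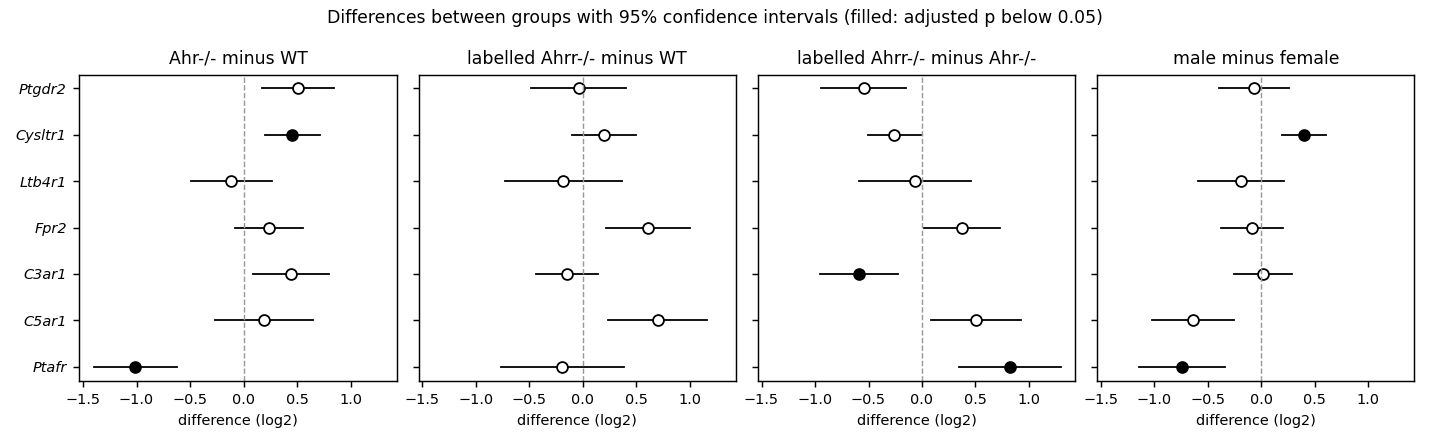
Differences in expression (log2) of the 7 tested receptors in the 3 comparisons of genotypes and between males and females, with bars for the 95% interval and filled points for an adjusted p below 0.05 in limma. Ptafr has a filled point at -1.01 for Ahr-/- minus WT, at 0.82 for samples labelled Ahrr-/- minus Ahr-/- and at -0.74 for males minus females.

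The comparison of the samples labelled Ahrr-/- with WT asks what differs when the repressor gene is targeted, and it uses the same 6 WT samples as the one before. None of the 7 tested receptors was called, beside 0.0779% of all genes tested (9 of 11546, with 853 at an unadjusted p below 0.05 in limma). At an unadjusted p below 0.05, C5ar1 and Fpr2 were the receptors among the 7. C5ar1 had lowest, median and highest log2 values of 7.94, 8.72 and 9.23 in the samples labelled Ahrr-/-, all above the WT median of 7.80 and 4 above the highest WT sample. Its difference was 0.70 (95% interval 0.24 to 1.16, adjusted p = 0.502 from limma). Fpr2 had 5.65, 5.92 and 6.37 in WT and 5.90, 6.65 and 6.91 in the samples labelled Ahrr-/-, with 5 of 6 above the WT median. It differed by 0.61, where limma gave an adjusted p of 0.502 (standard error 0.18), and the ratio of mean normalized counts was 2.93. The WT mean of Fpr2, 5.94, was under the minimum mean, so it was tested here only through the samples labelled Ahrr-/-, where it is high. No conclusion is drawn from its test. C5ar1 and Fpr2 are both receptors of phagocytes in general. The neutrophil sum lay above the whole WT range in these samples. The macrophage sum had a higher median but overlapped WT, and 0 of its 9 tested genes were called in limma. Ahrr-/- F1, with the lowest macrophage sum of its group (1315, against 1488 in the lowest WT library), had its highest C5ar1 (9.23) and Fpr2 (6.91). The neutrophil sum of Ahrr-/- F1 was 3003, in a group range of 1735 to 4481. This is 1 library, and nothing is read from it. The part of these cells in the C5ar1 and Fpr2 values was not tested.

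The remaining 5 receptors differed from WT by at most 0.20 in either direction in the samples labelled Ahrr-/-: Cysltr1 by 0.20 (adjusted p = 0.706), Ptafr by -0.19 (0.832), Ltb4r1 by -0.18 (0.833), C3ar1 by -0.15 (0.754) and Ptgdr2 by -0.04 (0.96, all adjusted p from limma). For Ptafr the 95% interval ran from -0.77 to 0.38, so a difference of the size seen in Ahr-/- (-1.01) lies outside it. The Ptafr values of these samples were spread widely, with a lowest, median and highest of 11.96, 13.07 and 13.96, so that they covered the WT range and reached both above and below it.

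Setting the mutant groups against each other, which shares samples with both comparisons above, placed Ptafr and C3ar1 past the threshold, again 2 of the 7 receptors tested, beside 14.9% of all genes tested (1708 of 11474). Ptafr was higher in the samples labelled Ahrr-/- by 0.82 (standard error 0.22, adjusted p = 0.0263 from limma, above the Ahr-/- median in 5 of 6 samples), with a ratio of mean normalized counts of 1.83. The groups overlapped: Ahrr-/- M3 (11.96), M2 (12.83) and F3 (12.94) lay within the Ahr-/- range, which reached 13.04. The call ended when Ahr-/- F1, M1 or M2 or Ahrr-/- M1 was left out (adjusted p between 0.0513 and 0.0693) and with no sex covariate (0.13, in a range from 0.00153 over the 24 alternatives).

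C3ar1, which binds the complement fragment C3a, had lowest, median and highest log2 values of 8.29, 8.81 and 9.29 in Ahr-/- and 7.92, 8.20 and 8.41 in the samples labelled Ahrr-/-. All 6 of the latter lay below the Ahr-/- median and 4 below the lowest Ahr-/- sample. The difference was -0.59 (standard error 0.17, 95% interval -0.95 to -0.22, adjusted p = 0.0341 from limma), and the ratio of mean normalized counts was 0.595. Omitting 1 of 6 samples ended the call (Ahr-/- F2, F3, M2 or M3, or Ahrr-/- M1 or M3, adjusted p between 0.0504 and 0.0862), as did no minimum mean (0.0533) and sample weights (0.126, in a range from 0.0179 over the 24 alternatives). Without Ahr-/- M2 or without Ahrr-/- M1, both calls ended.

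The C3ar1 promoter is shown for a comparison of its letters with those of Ptafr, as the only receptor among the 8 with more than 1 match to AGATAA. This motif of GATA factors, which include a master regulator of eosinophils, was chosen after the sequences were seen and searched on both strands (TTATCT on the other), without overlap with GCGTG. It occurred in 2 of the 8 receptor windows, once in Fpr2 and 2 times in C3ar1, against 9.99% of all 32851 windows of 250 bases. A match is a description of the letters, not evidence of a bound site. The C3ar1 window, chr6:122856158-122856407 on the minus strand (RefSeq, GRCm38.p6), has its matches in capitals, beginning 230 and 49 bases before the RefSeq start at 122856157, and is given 5′ to 3′.
C3ar1 promoter: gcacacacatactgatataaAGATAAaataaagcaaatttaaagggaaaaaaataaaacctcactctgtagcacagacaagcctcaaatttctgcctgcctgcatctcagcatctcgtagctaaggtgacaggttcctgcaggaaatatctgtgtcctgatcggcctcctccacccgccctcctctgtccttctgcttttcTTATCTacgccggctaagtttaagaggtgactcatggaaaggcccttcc

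Between the mutant groups the 5 receptors not called had mixed directions: Ptgdr2 differed by -0.55 (adjusted p = 0.059), C5ar1 by 0.51 (0.0899), Fpr2 by 0.37 (0.137), Cysltr1 by -0.26 (0.134) and Ltb4r1 by -0.07 (0.874, all from limma). Ptgdr2 was below the Ahr-/- median in 5 of 6 samples and C5ar1 above it in 5 of 6. Ptgdr2 passed the threshold under quantile normalization (-0.63, adjusted p = 0.0491), centring on the median (-0.61, 0.0458), limma voom (-0.79, 0.0466), and without Ahrr-/- F1 or F2 (0.021), in a range of adjusted p up to 0.142. Fpr2 passed it with sample weights (0.51, 0.0261) and without Ahrr-/- M1 (0.0478), C5ar1 with sample weights (0.49, 0.0444) and Cysltr1 under quantile normalization (-0.37, 0.0371). Of the 5 eosinophil markers tested here, 3 were called, each lower in the samples labelled Ahrr-/-. These were Siglecf (-0.72, adjusted p = 0.02), Il5ra (-0.75, 0.018) and Prg2 (-2.07, 1.81e-05, all from limma). The more abundant Itgam (-0.33, 0.295) and Ccr3 (-0.33, 0.355, both from limma) were not called. Called higher in the samples labelled Ahrr-/- were 4 of 10 epithelial genes, Epcam (1.12, adjusted p = 0.0191), Krt8 (1.08, 0.019), Krt18 (0.63, 0.0438) and Lyz1 (1.91, 0.0239), as well as S100a8 (1.73, 0.0103), S100a9 (1.69, 0.00305), Jchain (3.20, 0.00708) and C1qb (1.06, 0.0466), while Itgae was lower (-0.47, 0.015, all from limma). Itgae was below the minimum mean between WT and the samples labelled Ahrr-/-. It was tested here only through Ahr-/-, where it is high, so no conclusion is drawn from its call. The part of cell composition in these receptor values was not tested.

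Males and females were compared over all 18 samples with genotype in the model. Ptafr and Cysltr1 were the receptors called, 2 of 7, beside 3.06% of all genes tested (351 of 11468, 69 higher and 282 lower in males). Cysltr1, which lies on the X chromosome, was higher in males by 0.40 (standard error 0.10, 95% interval 0.19 to 0.60, adjusted p = 0.0323 from limma), with 9 of 9 males above the female median. Within genotype the male minus female difference was 0.54 in WT, 0.29 in Ahr-/- and 0.36 in the samples labelled Ahrr-/-, without overlap in WT and in Ahr-/-. The call ended on omitting 1 of 9 samples out of 18 (WT F2, M2 or M3, Ahr-/- F1, F2, M1 or M2, or Ahrr-/- F1 or F2, adjusted p between 0.0519 and 0.0746) and in 5 other alternatives, with an adjusted p from 0.00687 to 0.106 over all of them.

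Ptafr was lower in males (difference -0.74, standard error 0.19, 95% interval -1.14 to -0.34, adjusted p = 0.0392 from limma), with 6 of 9 males below the female median and 4 below the lowest female. The male minus female difference was -0.24 in WT, -1.06 in Ahr-/-, where the sexes did not overlap, and -0.93 in the samples labelled Ahrr-/-. In the latter, females had 13.86, 13.96 and 12.94 and males 13.20, 12.83 and 11.96. The call ended on omitting 1 of 13 samples out of 18 (any but WT F1, M1 or M2 or Ahrr-/- F3 or M1, adjusted p between 0.0502 and 0.0957) and when both F3 libraries of WT and Ahr-/- were left out (0.0717), in a range from 0.000998 to 0.173. C5ar1 was lower in 8 of 9 males than the female median (-0.64, 95% interval -1.02 to -0.26, adjusted p = 0.0633 from limma). It was called in 6 of 29 alternatives, namely a minimum mean of 3, sample weights (0.00082) and the omission of WT F1 or M1 or Ahrr-/- F3 or M1. The other 4 receptors had an adjusted p of at least 0.626. The sum of eosinophil markers had a lowest, median and highest value of 21239, 36256 and 44490 in females and 15583, 33567 and 36169 in males, and the mast cell markers had 249, 506 and 777 in females and 155, 225 and 323 in males. The sum for macrophages, monocytes and dendritic cells ran the other way, at 1298, 1979 and 3957 in females and 1488, 3088 and 6512 in males. Among single markers, 2 genes of the mast cell list and 1 of the neutrophil list were called lower in males and 1 gene of the macrophage list higher. Their part in the sex differences was not tested.

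Ptafr varied between samples of the same genotype and sex together with many other genes. After the mean of each of the 6 groups of 3 samples was subtracted, the Pearson correlation of Ptafr with each of the other 11467 genes was above 0.9 for 106 genes and below -0.9 for 100, over 18 samples. For Cysltr1 and for C3ar1 it was beyond 0.9 in either direction for 0 genes each. These points share libraries, depth and cell composition. The deviations of Ptafr correlated with those of the log2 sum of the eosinophil markers at 0.929 (Spearman 0.845, 18 samples, 0.857 without the 2 samples farthest from the median), and with those of the log2 total count at -0.087. Within genotypes the value for the eosinophil markers was 0.933 in WT, 0.364 in Ahr-/- and 0.984 in the samples labelled Ahrr-/- (6 samples each), so it was weaker within Ahr-/-. For the other sums the order is WT, Ahr-/- and the samples labelled Ahrr-/-. The values were -0.973, -0.107 and -0.589 for the epithelial sum (-0.661 over 18 samples, -0.468 without the 2 farthest) and 0.795, 0.835 and 0.782 for the mast cell list, mostly Gata2 and Kit (0.617 over 18). They were -0.039, -0.891 and -0.621 for the macrophage, monocyte and dendritic cell list, 0.834, 0.851 and 0.255 for the fibroblast and endothelial list, mostly Pecam1, and -0.403, -0.803 and 0.737 for the neutrophil list. The neutrophil sum thus changed sign between genotypes. A part of cell composition in this shared variation was not tested.

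The gene most like Ptafr was Pla2g7, at 0.981 over 18 samples (Spearman 0.988, 0.971 without the 2 samples farthest from the median), followed by Runx3 at 0.972 and Dennd5a at 0.970. Pla2g7 encodes the secreted acetylhydrolase that breaks down platelet-activating factor, the ligand of the Ptafr product. Within genotypes the correlation of the deviations was 0.977 in WT, 0.971 in Ahr-/- and 0.988 in the samples labelled Ahrr-/- (6 samples each). Across genotypes the pair parted: Pla2g7 had lowest, median and highest log2 values of 13.56, 13.86 and 14.19 in WT and 13.37, 13.64 and 13.93 in Ahr-/-, largely overlapping, with a difference of -0.25 (adjusted p = 0.335 from limma) beside -1.01 for Ptafr. On the values themselves, group means included, the correlation was 0.81 (Spearman 0.874, 18 samples).

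**Figure D4:**
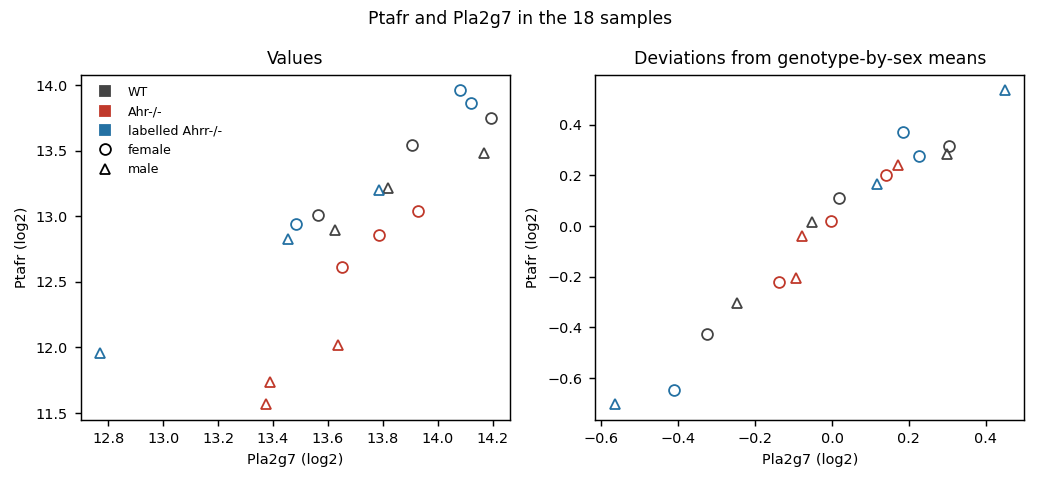
Ptafr (vertical) against Pla2g7 (horizontal) in the 18 samples, as variance-stabilized log2 values and as deviations from the mean of each genotype and sex, coloured by genotype with circles for females and triangles for males. In the values, Ahr-/- samples lie lower in Ptafr than WT samples with like Pla2g7, and the deviations of all groups fall near 1 line (Pearson 0.981 over 18 samples).

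The genes most like Cysltr1 in these deviations were Chac2 (0.862), Gpn1 (0.805) and Dnajc16 (0.803), and those most like C3ar1 were Pitpna (0.82), Lifr (0.769) and Sppl3 (0.766), each over 18 samples. Among the 7 receptors themselves, the pairs with the highest correlation of deviations were Ptgdr2 with Ltb4r1 (0.779), C5ar1 with Ptafr (0.738) and Ptgdr2 with Ptafr (0.633), and the lowest was Fpr2 with C5ar1 (-0.271, 18 samples each). The deviations of C5ar1 with Ptgdr2 (0.07), C3ar1 with Ptafr (0.084) and Cysltr1 with Ptafr (0.104) had correlations near 0, so Ptgdr2 and C5ar1 each varied with Ptafr but hardly with each other.

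Other receptors of the same ligand classes were listed as well, 23 genes of which 21 were in the table and 9 were tested. In Ahr-/-, 3 were called higher and 1 called lower than in WT, beside 8.84% called over all genes tested, with a median difference of 0.07 beside -0.00. The prostaglandin E2 receptor Ptger4, which raises cyclic AMP, had lowest, median and highest log2 values of 7.70, 7.84 and 8.74 in WT and 8.37, 8.73 and 9.08 in Ahr-/-. It rose by 0.74 (adjusted p = 0.00438 from limma, above the WT median in 6 of 6 samples), with overlap through the highest WT sample. Ptger2, which also raises cyclic AMP, rose by 0.59 (0.0244) and the histamine receptor Hrh2 by 0.48 (0.0226), while Ptger3, an inhibitory prostaglandin E2 receptor, fell by 0.74 (0.026, each in 6 of 6 samples). Omitting 1 sample ended the calls of Hrh2 (Ahr-/- F1, F3 or M3, adjusted p 0.0551 to 0.0688), Ptger2 (Ahr-/- F1, F3, M1 or M3, 0.0567 to 0.0669) and Ptger3 (WT F3 or M3 or Ahr-/- F1, F2, M2 or M3, 0.0573 to 0.0704), but not that of Ptger4, and without both F3 libraries of WT and Ahr-/- the call of Hrh2 ended too (0.08).

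None of these other receptors was called between WT and the samples labelled Ahrr-/- in limma (median difference -0.01, with Cmklr1 the gene of the 9 at an unadjusted p below 0.05), beside 0.0779% of all genes tested. Between the mutant groups, 2 were called higher and 2 called lower in the samples labelled Ahrr-/-, beside 14.9% of all genes tested, with a median difference of -0.15. Ptger2 (difference -0.75, adjusted p = 0.0072, 6 of 6 samples) and Ptger4 (-0.60, 0.0139, 5 of 6) were lower, calls that held without any 1 sample. Gpr35 was higher by 0.66 (0.0247, 6 of 6 samples), a call that ended without Ahr-/- M1 or Ahrr-/- M3 (0.059 to 0.0627). The chemerin receptor Cmklr1 was higher by 0.42 (0.0414, 6 of 6 samples), which ended without any 1 of 7 samples (Ahr-/- F1, F2, M1, M2 or M3, or Ahrr-/- F3 or M3, 0.0534 to 0.0963). Males and females differed in Gpr132, a receptor for oxidized fatty acids, which was lower in males (difference -0.79, adjusted p = 0.0157 from limma), the only 1 of the 9 called for sex (3.06% of all genes tested).

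Synthesis of the ligands was followed in 14 genes, 13 of them in the table and 12 tested in Ahr-/- against WT. Of these, 2 were called higher and 1 called lower in Ahr-/- (8.84% of all genes tested were called, median difference 0.06). The gene called lower was Ptgs1, the constitutive cyclooxygenase at the head of prostaglandin synthesis. Lowest, median and highest log2 values of Ptgs1 were 9.31, 9.58 and 10.14 in WT, 8.34, 8.50 and 8.76 in Ahr-/- and 9.13, 9.62 and 10.22 in the samples labelled Ahrr-/-. Each Ahr-/- sample lay below every sample of the other groups, with a difference of -1.11 from WT (adjusted p = 3.59e-05) and a rise of 1.12 from Ahr-/- to the samples labelled Ahrr-/- (0.000531, both from limma), and both calls held without any 1 sample. Ptgs2, the inducible cyclooxygenase, was not called (0.06, adjusted p = 0.947).

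On the leukotriene branch, Alox5ap, which presents arachidonic acid to 5-lipoxygenase, rose in Ahr-/- by 0.54 (adjusted p = 0.0335, 5 of 6 samples above the WT median), and Ltc4s, which makes leukotriene C4, rose by 0.48 (0.026, 6 of 6). Ltc4s lay near the floor, with a log2 median of 5.85 in WT and 6.35 in Ahr-/-, and was below the minimum mean between WT and the samples labelled Ahrr-/-. The WT mean of Ltc4s, 5.89, was under that minimum, so it was tested against WT only through the Ahr-/- samples. Its call in Ahr-/- ended with no minimum mean. It is counted among the calls given above, but no conclusion is drawn from it. The lipoxygenase Alox5 itself differed by -0.03 (adjusted p = 0.902). Omitting 1 sample ended the call of Alox5ap (WT F1 or F3 or Ahr-/- F1, F2, F3 or M3, adjusted p 0.0581 to 0.089) and that of Ltc4s (WT M2 or Ahr-/- F2, F3, M1 or M3, 0.0512 to 0.0714), and leaving out both F3 libraries of WT and Ahr-/- ended both.

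C3, the source of the C3ar1 ligand C3a, was the only gene of the synthesis list called between WT and the samples labelled Ahrr-/- (1 of 11 tested, beside 0.0779% of all genes tested, median difference 0.01). Its lowest, median and highest log2 values were 6.54, 6.72 and 7.51 in WT, 6.22, 6.96 and 7.24 in Ahr-/- and 7.83, 8.37 and 8.60 in the samples labelled Ahrr-/-. The latter lay above every other sample, and C3 rose by 1.43 from WT (adjusted p = 0.00219) and by 1.47 from Ahr-/- (0.000207, both from limma), in both cases also without any 1 sample. Anxa1, whose product is a ligand of formyl peptide receptors, rose by 0.71 from Ahr-/- (0.00431, 6 of 6 samples) and differed from WT by 0.57 (adjusted p = 0.378). With Ptgs1 these were the 3 genes of 12 called higher in the samples labelled Ahrr-/- than in Ahr-/-, with 0 called lower (14.9% of all genes tested were called). Without regard to calls, 5 of the 12 were higher and 7 lower, with a median difference of -0.11. The epithelial, macrophage and neutrophil sums above also had their highest medians in these samples, although against WT the only genes of those lists called were S100a8 and S100a9. Col1a2 and Cdh5 of the fibroblast and endothelial list were called higher there than in Ahr-/-, with the limit given above. The part of these other cells in the C3 and Anxa1 values was not tested. For sex, with 3.06% of all genes tested called, 1 of 12 was called higher in males, Hpgds by 0.55 (0.0381), and 1 called lower, the histamine-forming enzyme Hdc (difference -1.56, 0.0248, limma). The call of Hpgds was lost without any 1 of 11 samples (WT F2 or M3, Ahr-/- F1, F2, M1, M2 or M3, or Ahrr-/- F1, F2, M1 or M3, highest adjusted p 0.0919) and that of Hdc without any 1 of 7 (WT F2 or M3, Ahr-/- F1, F2, M1 or M3, or Ahrr-/- F1, 0.0635).

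Breakdown of the ligands was followed in 15 genes, 12 of them tested in Ahr-/- against WT. Of these, 2 were called higher and 1 called lower in Ahr-/-, beside 8.84% of all genes tested (median difference -0.10). Dpep2, a membrane dipeptidase that turns leukotriene D4 into leukotriene E4, showed the largest difference of the 4 lists. Its lowest, median and highest log2 values were 9.30, 10.03 and 10.50 in WT, 6.14, 6.46 and 6.86 in Ahr-/- and 9.08, 9.40 and 10.22 in the samples labelled Ahrr-/-. Each Ahr-/- sample lay far below every sample of the other groups. Dpep2 fell in Ahr-/- (difference -3.49, adjusted p = 2.66e-09) and was higher by 3.06 in the samples labelled Ahrr-/- than in Ahr-/- (3.77e-09, both from limma), with no call lost without any 1 sample. Hnmt, which methylates histamine, rose in Ahr-/- by 0.70 (adjusted p = 0.011), and Cyp4f18, which inactivates leukotriene B4, rose by 0.65 (0.00662, each in 6 of 6 samples).

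Between WT and the samples labelled Ahrr-/-, none of 13 breakdown genes was called in limma (3 at an unadjusted p below 0.05, median difference 0.24), beside 0.0779% of all genes tested. Between the mutant groups 3 of 13 were called higher and 1 called lower in the samples labelled Ahrr-/- (median difference 0.49 beside -0.00 over all genes tested, 14.9% of which were called). Cyp4f18 was lower (difference -0.79, adjusted p = 0.0146, 6 of 6 samples). Beside Dpep2, the histamine-degrading diamine oxidase Aoc1 was higher by 1.08 (0.0419, 4 of 6 samples) and Ptgr1, which acts on prostaglandins and leukotriene B4, by 0.66 (0.0421, 5 of 6). The call of Aoc1 ended without any 1 of 8 samples (Ahr-/- F1, F2, M1, M2 or M3, or Ahrr-/- F3, M1 or M3, 0.0747 to 0.105) and that of Ptgr1 without any 1 of 7 (the same but Ahr-/- M2, 0.0756 to 0.103). Aoc1 is also an enterocyte gene, and the epithelial marker sum had a higher median in these samples, with overlap. Its part in the Aoc1 value was not tested. No breakdown gene was called for sex (0 of 13 in limma, with 3 at an unadjusted p below 0.05, beside 3.06% of all genes tested).

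Signalling below the receptors was followed in 23 genes, each of them tested. In Ahr-/- 4 were called higher and 2 called lower than in WT, beside 8.84% of all genes tested (median difference 0.18). Arrb1, an arrestin that uncouples and internalizes receptors, had lowest, median and highest log2 values of 11.06, 11.26 and 11.46 in WT and 10.13, 10.52 and 10.75 in Ahr-/-. The groups did not overlap, and Arrb1 fell (difference -0.80, adjusted p = 0.000365 from limma, lower in 6 of 6 samples). The G protein gamma subunit Gngt2 fell as well (-0.53, 0.0044), while the receptor kinase Grk3 rose by 0.52 (0.00969) and Pik3cg, the phosphoinositide kinase that G proteins activate, rose by 0.45 (0.0103, each in 6 of 6 samples). These 4 calls held without any 1 sample. The phospholipase Plcb2 (0.39, adjusted p = 0.0375) and the Rac exchange factor Prex1 (0.42, 0.0313) also rose, in 6 of 6 samples each, but lost the call without any 1 of 8 samples, WT F1, F3 or M3 or Ahr-/- F1, F2, F3, M1 or M3, with an adjusted p up to 0.0942 and 0.0839, and without both F3 libraries of WT and Ahr-/- (0.106 and 0.127).

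None of the 23 signalling genes was called between WT and the samples labelled Ahrr-/- in limma (1 at an unadjusted p below 0.05, median difference -0.14), beside 0.0779% of all genes tested. Between the mutant groups 1 was called higher and 4 called lower in the samples labelled Ahrr-/-, beside 14.9% of all genes tested (median difference -0.27). Pik3cg was lower (difference -0.71, adjusted p = 0.00606, 6 of 6 samples, without overlap), and its call held without any 1 sample. Arrb1 was higher by 0.58 (0.0231, 5 of 6), a call that ended without Ahr-/- F1 or M1 (0.0575 to 0.0596). Plcb2 (-0.68, 0.0239), Prex1 (-0.52, 0.0469) and Gnaq, an alpha subunit that activates phospholipase C (-0.43, 0.0447), were lower in 6 of 6 samples each. The call of Plcb2 ended without any 1 of 6 samples (Ahr-/- F2, M1, M2 or M3, or Ahrr-/- F3 or M3, highest adjusted p 0.0617). That of Prex1 ended without any 1 of 9 (each of the 6 Ahr-/- samples, or Ahrr-/- F3, M1 or M3, 0.105) and that of Gnaq without any 1 of 8 (the same but Ahr-/- F3, 0.102). For sex, 0 of 23 were called in limma, with 3 at an unadjusted p below 0.05, beside 3.06% of all genes tested.

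**Figure D5:**
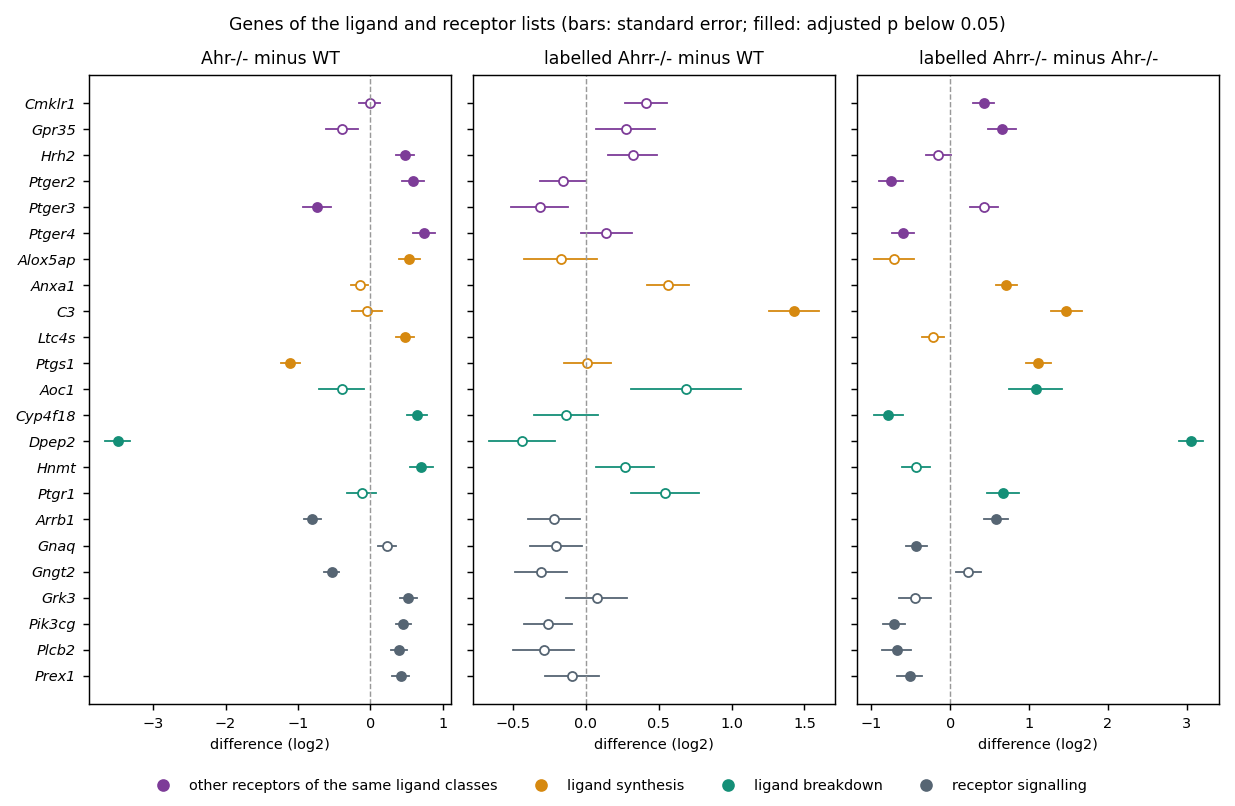
Differences in expression (log2) of the 23 genes of the ligand and receptor lists that passed the test in at least 1 comparison of genotypes, with bars for the standard error, filled points for an adjusted p below 0.05 in limma and colours for the 4 lists. The 3 panels have separate horizontal axes. Dpep2 lies farthest from 0, at -3.49 for Ahr-/- minus WT and 3.06 for samples labelled Ahrr-/- minus Ahr-/-.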

How the data were processed

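Expression was used as deposited, on the log2 scale of the authors' variance-stabilizing transformation. According to the methods and notes, the authors aligned single-ended reads with STAR 2.5.2 to GRCm38, counted them with RSEM 1.3.0 and used DESeq2 in R 4.0.3. Inverting the transformation returned whole counts throughout (100% of values, tolerance 0.001), which gave depth and normalized counts. Each gene was fitted with limma 3.58.1 in R 4.3.3 (linear model with a mean-variance trend, two-sided, sex as covariate, Benjamini-Hochberg adjusted p below 0.05) over genes with a mean at least 1 above the lowest value. The comparison of sexes used all 18 samples with genotype as covariate. Differences are second minus first group as named. The rest ran in Python (3.11.15) using pandas 2.3.3, numpy 2.4.6, matplotlib 3.10.9 and scipy 1.17.1, and the code was tested on simulated data. The members and lists were chosen with earlier results of these data known. Genes named are the 10 receptors, Ahr, Ahrr, cell markers, list genes past the threshold (with Ptgs2 and Alox5 beside them) and the 3 genes most like each called receptor. Lists cover other receptors, ligand synthesis, ligand breakdown, signalling and 9 sets of cell markers. Exon lengths came from GENCODE vM21. Alternatives changed the minimum mean, scaling, trend, weights, covariates and samples. Set tests and the other experiments of the study were left out.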

Additional observations from a re-analysis of the deposited data

Results flagged for a closer look

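In 35 groups of 6 samples, the sample at either end was compared with its nearest neighbour by Dixon's ratio. Chance alone picks out about 1 in 20 such groups, and 3 were picked out. WT F3 had a count for 20244 genes, more than any other WT library. Ahr-/- F3 had a count for 19694 genes, more than any other Ahr-/- library. Fpr1 was 6.42 on the log2 scale in Ahr-/- F3, against 5.57 in the next Ahr-/- sample. No reason for these values was tested.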

How the results depend on the processing

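The differences of the tested receptors, Ahr, Ahrr and the called list genes, and the counts of called genes, were computed again with 1 choice changed. Levels per kilobase, correlations and calls of cell markers were not computed under these alternatives. The cause of a change was not tested unless fewer samples or genes entered. Receptors called between WT and Ahr-/- (2 as reported) numbered 1, which was Ptafr each time, with no minimum mean, a minimum of 3, no sex covariate, the replicate block, both F3 libraries of WT and Ahr-/- left out, or males only, and 0 in females only. Genes called there (1003) numbered 553 with all 18 samples, 586 without the F3 libraries, 241 in females and 306 in males. With 1 sample left out these counts ran from 1 to 3 receptors and from 623 to 1124 genes. The settings that omit both F3 libraries or use 1 sex were chosen after seeing the data. Between WT and the samples labelled Ahrr-/-, 0 receptors were called throughout, and the 9 genes became 4 with no minimum mean, centring, log2(count + 1), limma voom or the replicate block, 5 with a minimum of 3 or quantile normalization, 18 with sample weights, 14 with all 18 samples and 4 to 25 with 1 sample left out. The labels share only a replicate number, and values of the same number did not go together across genotypes (correlations from -0.592 to 0.473).

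Between the mutant groups (2 receptors, 1708 genes), 1 receptor was called with no minimum mean (Ptafr) or no sex covariate (C3ar1), 4 with quantile normalization (Ptgdr2, Cysltr1, C3ar1 and Ptafr) and 0 to 3 with 1 sample left out. Genes numbered 828 with a minimum of 3, 994 with no sex covariate and 818 to 2574 with 1 sample left out. For sex (2 receptors, 351 genes), 0 receptors were called with no minimum mean or no genotype covariate, 1 with centring, quantile normalization, limma voom or without the F3 libraries, and 0 to 3 with 1 sample left out. Genes numbered 163 with no minimum mean, 1310 with sample weights, 211 with no genotype covariate and 142 to 733 with 1 sample left out. Genotype by sex gave 0 genes throughout, in limma.

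Calls of list genes ended as follows. Between WT and Ahr-/-, no minimum mean ended those of Hrh2, Ptger2, Ptger3, Alox5ap, Ltc4s, Plcb2 and Prex1, and all 18 samples in the fit those of Hrh2, Alox5ap, Cyp4f18, Gngt2, Grk3, Pik3cg, Plcb2 and Prex1. Sample weights ended Alox5ap and Plcb2, centring Plcb2, limma voom Ltc4s, and the replicate block Ltc4s and Plcb2. Within 1 sex only, Ptgs1 and Dpep2 kept the call in both sexes. Between the mutant groups, no sex covariate ended Ptger4, Cmklr1, Gpr35, Aoc1, Ptgr1, Cyp4f18, Gnaq, Arrb1 and Prex1, and no minimum mean Cmklr1, Aoc1, Ptgr1, Gnaq and Prex1. All 18 samples in the fit ended Aoc1, Ptgr1 and Gnaq, centring Cmklr1 and Arrb1, quantile normalization Cmklr1, the replicate block Gnaq, and limma voom or sample weights Prex1. For sex, no minimum mean ended Hpgds and Hdc and no genotype covariate Hpgds.

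Direction turned only for small differences that were not called. C5ar1 (Ahr-/- minus WT) was -0.33 in males only. For males minus females, C3ar1 was -0.0171 with centring and -0.0207 without the F3 libraries, Fpr2 0.0467 and Ahrr 0.0410 with sample weights, and Ahr 0.0667 with quantile normalization. With 1 sample left out, Ltb4r1 (Ahr-/- minus WT) ran from -0.22 to 0.0092, Ptgdr2 (Ahrr-/- minus WT) ran from -0.16 to 0.10 and Ptafr (Ahrr-/- minus WT) from -0.32 to 0.0030. Ltb4r1 (Ahrr-/- minus Ahr-/-) ran from -0.25 to 0.0480, and for males minus females C3ar1 ran from -0.0572 to 0.0864 and Ptgdr2 from -0.14 to 0.0218. The fall of Ptafr, Ptgs1 and Dpep2 in Ahr-/- kept its direction under every alternative, and its call under all but females only for Ptafr. Hrh4, Cysltr2 and Fpr1, which lay below the minimum mean, rest on few counts, and the part of depth in this was not tested.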
